A study of Mus musculus with 6 samples.

Results

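The 10 genes described here encode the transforming growth factor beta (TGF-beta) ligands (Tgfb1, Tgfb2 and Tgfb3) and the matricellular and matrix proteins best known from fibrosis (Ccn1, Ccn2, Postn, Thbs1, Sparc, Spp1 and Fn1). They were taken as all noncontrol probes whose gene name in the scanner files was one of these, with Ccn1 written as Cyr61 and Ccn2 as Ctgf. The rule found all 10 genes with 15 probes, and 12 of the 15 probes could be tested. All 10 genes were among the 16948 genes tested, so none was lost to the filter on dim probes. The samples were hearts of male C57BL/6 mice, an inbred laboratory strain, with 1 array per heart. In 3 adrenalectomized (ADX) mice the adrenal glands, the main source of corticosterone and aldosterone, had been removed at 1 month of age, and 3 sham-operated mice served as controls. Hearts were taken 6 months later, although another label gives the mice themselves as 6 months old. The labels name no transgene and no steroid replacement. The comparison asks what a long-term lack of adrenal steroids does to these genes in the whole heart, within a series on glucocorticoids and cardiac homeostasis.

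TGF-beta ligands are secreted in a latent form that is stored in the matrix and released by integrins, thrombospondin-1 or proteases. The active ligand binds a pair of serine/threonine kinase receptors that phosphorylate Smad2 and Smad3, and these enter the nucleus with Smad4. In the heart, fibroblasts respond by making collagen, fibronectin and periostin, and the matricellular proteins (thrombospondins, osteonectin, osteopontin and the CCN proteins) tune how cells sense that matrix. Ccn1 and Ccn2 are also induced within minutes by serum and by stretch, through the serum response factor and through the co-activators YAP and TAZ on TEAD factors.

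The array read each gene through 60-base probes, and 5 of them are shown. They belong to genes whose results below set probes of 1 gene side by side or rest on repeat spots. The Thbs1 and Spp1 probes and the other Sparc probe, to which this applies too, are not shown. Positions are given on mm7, the build of the array design, and an annotation of that build was not used here, so the exon of a probe is not given. The Fn1 probes lie on chromosome 1, minus strand, from 71832689 to 71834926, from 71839394 to 71839453 and from 71869155 to 71869913. The first and the last of them span 2238 and 759 bases of genome for 60 bases of probe, which places them across an exon junction. The Sparc probe shown lies on chromosome 11, minus strand, from 55352704 to 55355361 (a span of 2658 bases) and also crosses a junction, and the Tgfb1 probe lies on chromosome 7, plus strand, from 22478890 to 22478949. No base is set in capitals because no part of a probe is singled out.
Tgfb1 probe A_51_P390715: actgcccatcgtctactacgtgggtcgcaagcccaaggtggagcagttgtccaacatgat
Sparc probe A_52_P101852: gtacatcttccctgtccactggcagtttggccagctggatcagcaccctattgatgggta
Fn1 probe A_51_P100856: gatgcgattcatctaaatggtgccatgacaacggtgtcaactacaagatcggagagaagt
Fn1 probe A_52_P11817: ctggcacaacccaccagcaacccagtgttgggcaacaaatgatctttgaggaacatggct
Fn1 probe A_52_P299974: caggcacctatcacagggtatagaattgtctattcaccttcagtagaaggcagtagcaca

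Promoter sequences from RefSeq (GRCm38.p6) were available for 6 of the 10 genes, Tgfb1, Tgfb2, Ccn1, Postn, Sparc and Spp1, with 8 annotated starts between them. Each was searched on both strands, over the 250 bases before the start, for a Smad element (CAGAC), a TEAD element (GGAATG), an AP-1 site (TGANTCA), a CArG box (the serum response factor site), a TATA box (TATAAA) and a half-site of the glucocorticoid receptor (AGAACA). Only 3 promoters are shown, those of Ccn1 (a gene with lower values in ADX hearts), of Postn (higher values) and of Sparc (the promoter with glucocorticoid receptor half-sites), with matches in capitals. The Ccn1 promoter at chr3:145649986-145650235 (minus strand) held 1 TEAD element, 103 bases before the start, and a TATA box 25 bases before it. The Postn promoter at chr3:54360857-54361106 (plus strand) held a TATA box. The Sparc promoter at chr11:55420081-55420330 (minus strand) held 2 receptor half-sites, 78 and 14 bases before the start, and 1 Smad element.
Ccn1 promoter: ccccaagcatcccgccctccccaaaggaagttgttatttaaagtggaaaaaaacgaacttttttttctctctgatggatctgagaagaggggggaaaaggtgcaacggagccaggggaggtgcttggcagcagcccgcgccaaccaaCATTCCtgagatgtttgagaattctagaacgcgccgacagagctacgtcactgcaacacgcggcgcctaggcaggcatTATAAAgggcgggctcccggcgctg
Postn promoter: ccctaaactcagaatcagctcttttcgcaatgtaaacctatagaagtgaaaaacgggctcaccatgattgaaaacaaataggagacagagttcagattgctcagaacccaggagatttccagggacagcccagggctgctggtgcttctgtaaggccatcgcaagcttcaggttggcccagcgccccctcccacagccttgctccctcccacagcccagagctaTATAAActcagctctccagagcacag
Sparc promoter: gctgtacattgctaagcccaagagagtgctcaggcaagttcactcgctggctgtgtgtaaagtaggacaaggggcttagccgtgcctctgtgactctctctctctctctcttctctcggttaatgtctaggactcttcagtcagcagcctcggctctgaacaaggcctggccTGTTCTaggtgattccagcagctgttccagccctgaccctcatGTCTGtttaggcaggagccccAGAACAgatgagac

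Of the 8 promoters, 5 held a Smad element, 4 a TATA box, 1 a TEAD element and 1 a receptor half-site, and none held an AP-1 site or a CArG box. Among all 32851 promoter windows of the same length, 42.2% held the Smad element, 12.4% the TATA box, 12.6% the TEAD element, 16.1% the receptor half-site, 6.75% the AP-1 site and 1.47% the CArG box. These matches are descriptions of letters in a window.

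All levels below are log2 signals after subtraction of the 75th percentile of each array, and differences are ADX minus sham on that scale. The lowest Pearson r between the log2 levels of 2 arrays, taken across genes and so not over replicates, was 0.982. Well above background were 60.5% to 66.8% of spots on the ADX arrays and 57.7% to 60.2% on the sham arrays. As a check of the labelled tissue, Myh6, the alpha myosin heavy chain of cardiomyocytes, was at 9.12 to 9.48 in ADX and 9.19 to 9.62 in sham hearts, and all 8 listed cardiomyocyte markers were well above background on all 6 arrays. All sham arrays and ADX replicate 1 lay on slide 1, and ADX replicates 2 and 3 lay on slide 2, which held no sham array. A value within slide 1 therefore sets 1 ADX array against 3 sham arrays and assumes that it varies as they do. In whole hearts, fewer cells of a type and less RNA per cell cannot be told apart. Precision is set by the 6 arrays, and the standard error (SE) of a difference had a median of 0.14 over all genes. A limma p-value sets the difference against the spread between arrays of a group, moderated over all genes. With 1 array per heart that spread mixes heart and array, and in the ADX group also slide.

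None of the 10 genes passed a Benjamini-Hochberg adjusted p of 0.05 in limma, where 7 of 16948 genes did (0.0413%). The values of 5 genes were higher and of 5 lower in ADX hearts, with a median difference of -0.10, beside 56.6% higher and a median of 0.03 over all genes. Ccn2 had the largest of the lower differences (-0.59) and the smallest p, and Spp1 the largest of the higher ones (0.61). Ccn2 and Postn were the 2 genes of 10 with an unadjusted p under 0.05, against 12.3% of all genes (6.27% higher and 5.99% lower). The same 2 of 10 had groups that did not overlap, against 18.3% of all genes (10.4% with ADX above and 7.95% with ADX below). A count of 2 in 10 lies near these shares of all genes, and nothing particular to the 10 genes is read from it.

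**Figure D1:**
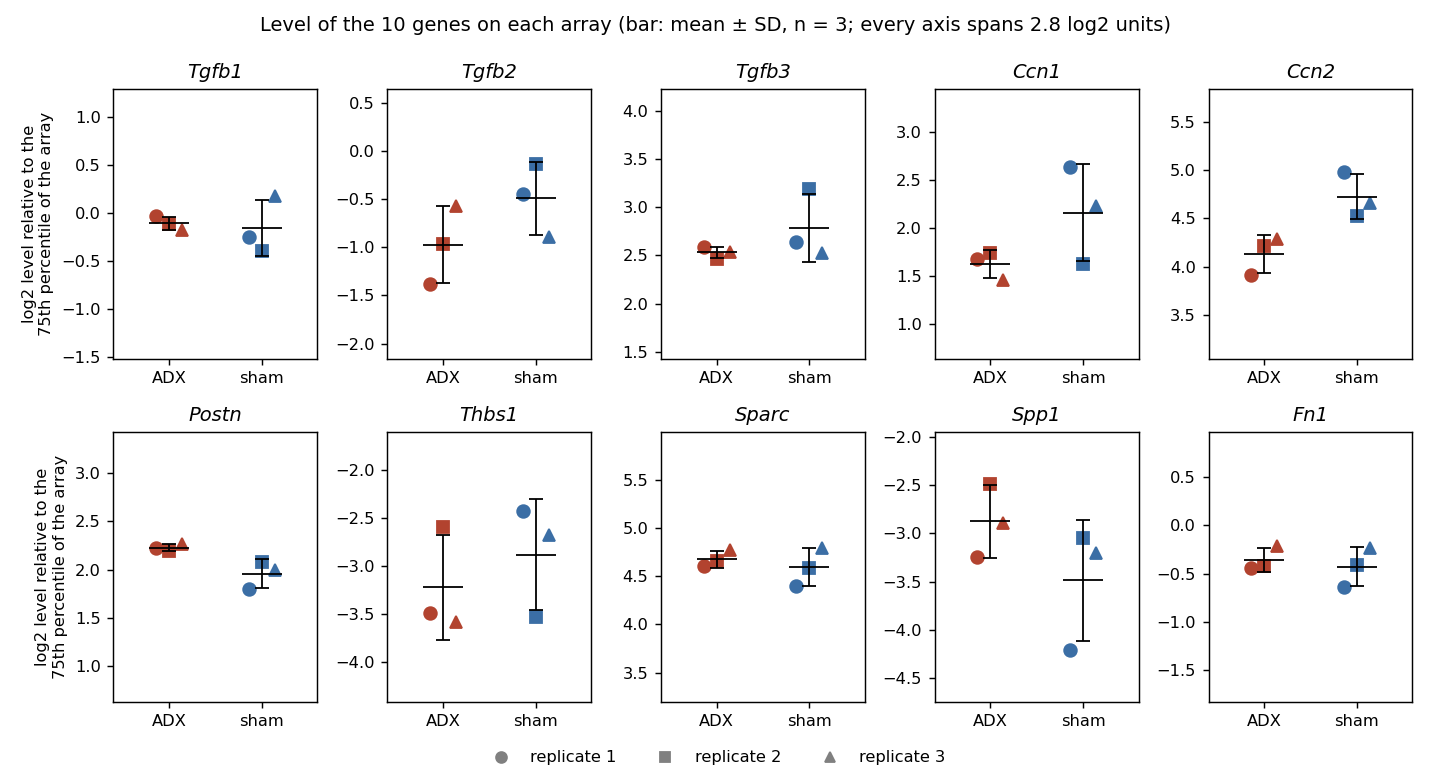
Log2 level of each of the 10 genes on each array, with the array's 75th percentile at 0, with ADX hearts (red) left of sham hearts (blue), the replicate number as the symbol, and the mean ± SD as bars. The 2 groups are apart for Ccn2 (ADX below) and Postn (ADX above) and overlap for the other 8 genes.

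Among the ligands, Tgfb1, the isoform that drives most fibroblast activation after injury, had levels of -0.04, -0.12 and -0.17 in ADX hearts, against -0.25, -0.39 and 0.17 in sham hearts. The ADX values lay inside the range of the sham values. The difference was 0.05 (SE 0.16, limma adjusted p = 0.927), and its 95% interval allowed a fold of 0.795 to 1.35. With an array left out it lay between -0.070 and 0.21. Tgfb2, a ligand that acts in heart valve and cushion development, had levels of -1.38, -0.96 and -0.57 in ADX hearts and -0.45, -0.13 and -0.89 in sham hearts. The ADX values reached lower, but ADX replicate 3 lay above sham replicate 3. The difference was -0.48 (SE 0.26, limma adjusted p = 0.49998), with a 95% interval from -1.09 to 0.13. Within slide 1 it was -0.88 (adjusted p = 0.464), and it was -0.28 without ADX replicate 1 and -0.30 without sham replicate 2. Tgfb3, the third isoform, had levels of 2.59, 2.47 and 2.54 in ADX hearts and 2.64, 3.19 and 2.52 in sham hearts, where only sham replicate 2 stood well above the rest. Its difference was -0.25 (SE 0.18, limma adjusted p = 0.605), and it was -0.05 without sham replicate 2, -0.39 without sham replicate 3 and 0.077 after normexp correction on the local background. The Tgfb2 and Tgfb3 probes lie on mm7 chromosome 1 from 186149057 to 186149116 and chromosome 12 from 84058334 to 84058393.

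Ccn2, the connective tissue growth factor, is a classic early target of TGF-beta and of YAP in fibroblasts and cardiomyocytes. Its levels were 3.91, 4.21 and 4.28 in ADX hearts, against 4.98, 4.52 and 4.66 in sham hearts, so every ADX value lay below every sham value. The means were 4.13 ± 0.20 in ADX and 4.72 ± 0.23 in sham hearts (SD, n = 3 each), a difference of -0.59 (SE 0.16) or a signal 1.50-fold higher in sham hearts. The unadjusted limma p was 0.00851 and the adjusted p 0.269, and Ccn2 ranked 536 by p. The 95% interval of the difference ran from -0.97 to -0.20. Within slide 1 the difference was -0.81 (adjusted p = 0.369), and after normexp correction on the local background it was -0.18 (unadjusted p = 0.326). The probe lies on mm7 chromosome 10 from 24349402 to 24349461.

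Ccn1, a related secreted protein that binds integrins and is induced within minutes by serum, had levels of 1.68, 1.74 and 1.46 in ADX hearts, against 2.63, 1.63 and 2.23 in sham hearts. Sham replicate 2 lay among the ADX values and the other sham values above them. The difference was -0.54 (SE 0.25, limma adjusted p = 0.439, unadjusted p = 0.0681). Without sham replicate 2 it was -0.80 (adjusted p = 0.403), without sham replicate 1 it was -0.30, and after normexp correction on the local background it was -0.23. The probe lies on mm7 chromosome 3 from 145544387 to 145544446.

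Thbs1, thrombospondin-1, activates latent TGF-beta and is also an early response gene. One of its 3 probes was well above background on all arrays, on mm7 chromosome 2 from 117866887 to 117866946, plus strand, and with it Thbs1 had levels of -3.48, -2.59 and -3.58 in ADX hearts and -2.43, -3.53 and -2.68 in sham hearts. The groups overlapped over nearly their whole range. The difference was -0.34 (SE 0.36, limma adjusted p = 0.733), with a range from -0.67 without sham replicate 2 and -0.65 without ADX replicate 2 to -0.21 without ADX replicate 1, -0.16 without ADX replicate 3 and -0.12 without sham replicate 1. After normexp correction on the local background it was -0.92 (limma adjusted p = 0.0318), in a setting that called 1220 genes higher and 4730 lower of 16948. The other 2 probes lie closer to the 5' end, from 117861824 to 117862004 and from 117863442 to 117863501. One was not well above background on any array and the other only on ADX replicate 2.

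Immediate early genes, a list of transcripts induced quickly by stimuli that include the handling of tissue, varied in the same arrays. The list had 10 of 10 members tested, of which 1 was higher and 9 lower in ADX hearts, with 0 past the adjusted threshold in limma, 3 lower at an unadjusted p under 0.05 and a median difference of -0.49. As a median over the list, the distance to the mean of the sham arrays was -0.84, -0.33 and -0.42 on the ADX arrays and 0.95, -0.49 and -0.02 on the sham arrays. On the same scale Ccn1 was at -0.48, -0.42 and -0.70 on the ADX arrays and 0.47, -0.54 and 0.06 on the sham arrays, and Ccn2 at -0.81, -0.51 and -0.44 on the ADX arrays and 0.26, -0.20 and -0.06 on the sham arrays. Sham replicate 1 was the highest array, and sham replicate 2 the lowest sham array, for Ccn1, Ccn2, Thbs1 and the list. The order of the ADX arrays differed. The list and Ccn2 were lowest on ADX replicate 1, and Ccn1 and Thbs1 on ADX replicate 3, with Thbs1 at 0.29 on ADX replicate 2. On sham replicate 2 the list lay below ADX replicates 2 and 3, while Ccn2 lay above all ADX arrays. The summed signal of the 9 list members measured on all arrays was 23.0 to 30.9 in ADX hearts and 33.0 to 77.6 in sham hearts, as multiples of the 75th percentile. It adds linear signals and so is weighted to strong genes, such as Nr4a1 at a log2 level of 5.39 on sham replicate 1. The part of this list in the Ccn1 and Ccn2 differences was not tested.

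**Figure D2:**
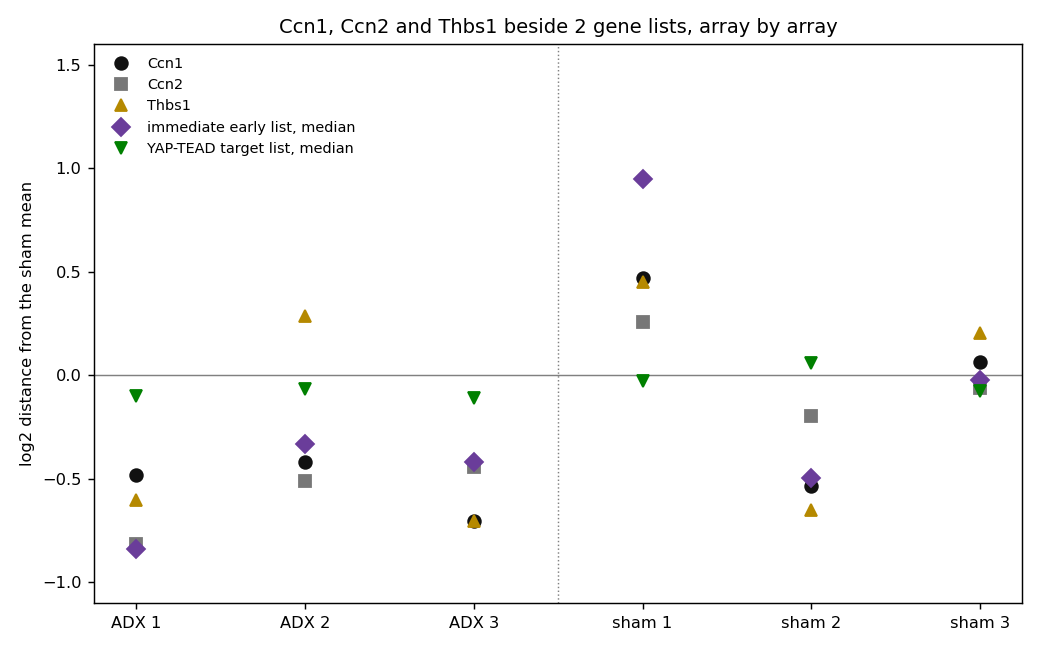
Log2 distance from the sham mean of Ccn1, Ccn2, Thbs1 and the medians of the immediate early and YAP-TEAD target lists, for the 3 ADX arrays (left) and the 3 sham arrays (right). Ccn1, Ccn2, Thbs1 and the immediate early list are highest on sham replicate 1. On sham replicate 2, Ccn2 (-0.20) and the YAP-TEAD median (0.06) lie above their values on all ADX arrays. Ccn1, Thbs1 and the immediate early list lie among their ADX values there. The YAP-TEAD points are a median over 16 genes, not single genes, and lie between -0.11 and 0.06. The part of either list was not tested.

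The immediate early genes with the smallest p were Nr4a1, an orphan nuclear receptor, at -1.73 (SE 0.54, limma adjusted p = 0.300), and Junb, an AP-1 subunit, at -0.51 (SE 0.19, adjusted p = 0.371), while the other Junb probe gave -0.37 with groups that overlapped. By Pearson correlation over the 6 arrays, the 5 named genes most like Ccn2 were Nr4a2 (r = 0.988), Klhl20 (0.988), Zfp280c (0.986), Evi1 (0.967) and Ifnar1 (0.966), out of 13300 named genes, of which 14 had an r over 0.95. These correlations are a description of 6 arrays that fall into 2 groups, and the genes compared were read on the same arrays. Nr4a2, an early response nuclear receptor, differed by -1.03 (limma adjusted p = 0.306) without overlap. The differences of the other neighbours were smaller, at -0.088 for Klhl20, -0.17 for Zfp280c, -0.27 for Evi1 and -0.21 for Ifnar1 (limma adjusted p 0.406 to 0.734).

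Postn, periostin, is made by activated fibroblasts and valve cells and is close to absent from cardiomyocytes. Its levels were 2.22, 2.19 and 2.26 in ADX hearts, against 1.79, 2.08 and 1.99 in sham hearts. Every ADX value lay above every sham value, and the ADX values were the more tightly spaced (2.23 ± 0.04 in ADX and 1.96 ± 0.15 in sham hearts, SD, n = 3 each). The difference was 0.27 (SE 0.11) or 1.20-fold, with an unadjusted limma p of 0.0497 and an adjusted p of 0.407. The 95% interval ran from 0.00051 to 0.54, so its lower end lay next to 0. Within slide 1 the difference was 0.27 too. After normexp correction on the local background it was 0.51 (limma adjusted p = 0.0385). That setting called 1220 genes higher and 4730 lower of 16948. The probe lies on mm7 chromosome 3 from 54519770 to 54519829.

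Sparc, osteonectin, binds collagen and acts in its assembly, and was read by 2 probes. With the probe shown above, which stands for the gene, levels were 4.60, 4.66 and 4.77 in ADX hearts and 4.40, 4.58 and 4.79 in sham hearts, and the groups overlapped (difference 0.09, SE 0.13, limma adjusted p = 0.827). The difference was -0.010 without sham replicate 1 and 0.43 after normexp correction on the local background. With the probe on mm7 chromosome 11 from 55351268 to 55351327, levels were 4.18, 4.19 and 4.43 in ADX hearts and 4.002, 4.12 and 3.78 in sham hearts. Here every ADX value lay above every sham value, with a difference of 0.30 (SE 0.14, limma adjusted p = 0.394 over all probes). The probes thus disagreed on overlap but not on direction, and sham replicate 3 was the highest sham array with the first probe and the lowest with the other.

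Fn1, fibronectin, is the scaffold on which collagen and latent TGF-beta are laid down. With the probe of 10 spots, which stands for the gene, Fn1 had levels of -0.44, -0.42 and -0.22 in ADX hearts and -0.64, -0.41 and -0.23 in sham hearts. The groups covered much the same range, with a difference of 0.07 (SE 0.14, limma adjusted p = 0.876) and a 95% interval that allowed a fold of 0.835 to 1.32. It was -0.039 without sham replicate 1 and -0.081 after normexp correction on the local background. With the probe from 71839394 to 71839453 the levels were -2.57, -2.56 and -2.52 in ADX hearts and -2.97, -2.81 and -2.49 in sham hearts (difference 0.21, SE 0.14, limma adjusted p = 0.561 over all probes). The third probe, farthest towards the 5' end, was not well above background on any array and was not tested.

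Spp1, osteopontin, a cytokine-like matrix protein of macrophages and remodelling muscle, was the least precise of the 10 genes after Thbs1. Its levels were -3.24, -2.49 and -2.89 in ADX hearts, against -4.21, -3.05 and -3.21 in sham hearts. ADX replicate 1 lay below sham replicates 2 and 3, and the other ADX values lay above all sham values. The difference was 0.61 (SE 0.33) or 1.53-fold, with a limma adjusted p of 0.501 and a 95% interval that allowed a fold of 0.885 to 2.65. Sham replicate 1 was the lowest array, with 6 of its 10 spots well above background, and without it the difference was 0.25. Within slide 1 it was 0.25 as well. With normexp on the local background the difference turned to -0.67 (limma adjusted p = 0.0265). That setting called 1220 genes higher and 4730 lower of 16948. With normexp on the negative control spots the difference stayed positive, at 0.30 (adjusted p = 0.591). Both settings start from the mean spot signal, not the processed signal, and the cause of the turn was not tested. The probe lies on mm7 chromosome 5 from 103631152 to 103631211.

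**Figure D3:**
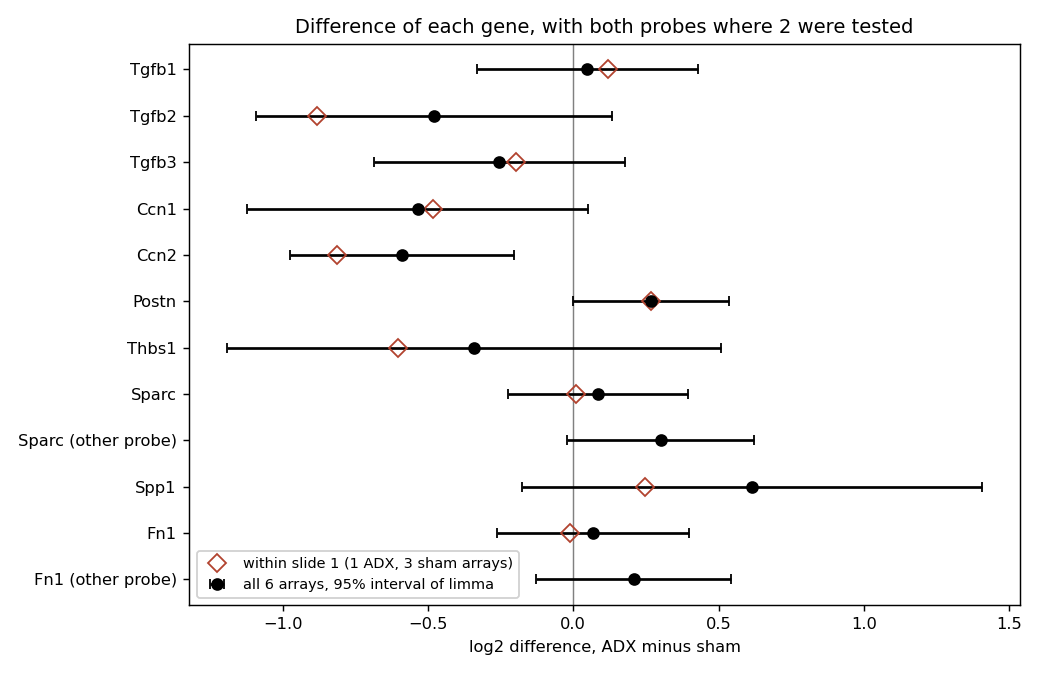
Log2 difference (ADX minus sham) of each gene with the 95% interval of limma (black) and the difference within slide 1 (red diamonds), and a further row for the other tested probe of Sparc and of Fn1. The intervals of Ccn2 and Postn leave out 0, that of Postn with its lower end at 0.00051, and those of the other genes include it.

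Tgfb1, Spp1 and Fn1 were each printed as 10 repeat spots, which gives the technical error within an array. With outlier-flagged spots left out, the pooled SD of single repeat spots was 0.05 for Tgfb1, 0.12 for Spp1 and 0.05 for Fn1. The SD between the array means of a group was 0.07 in ADX and 0.29 in sham hearts for Tgfb1. It was 0.38 in ADX and 0.63 in sham hearts for Spp1, and 0.12 in ADX and 0.21 in sham hearts for Fn1. The spread between arrays was therefore larger than that between unflagged spots in both groups for each of the 3 genes. For Tgfb1 the processed signals before scaling were 749, 773 and 712 in ADX hearts and 562, 490 and 1040 in sham hearts.

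**Figure D4:**
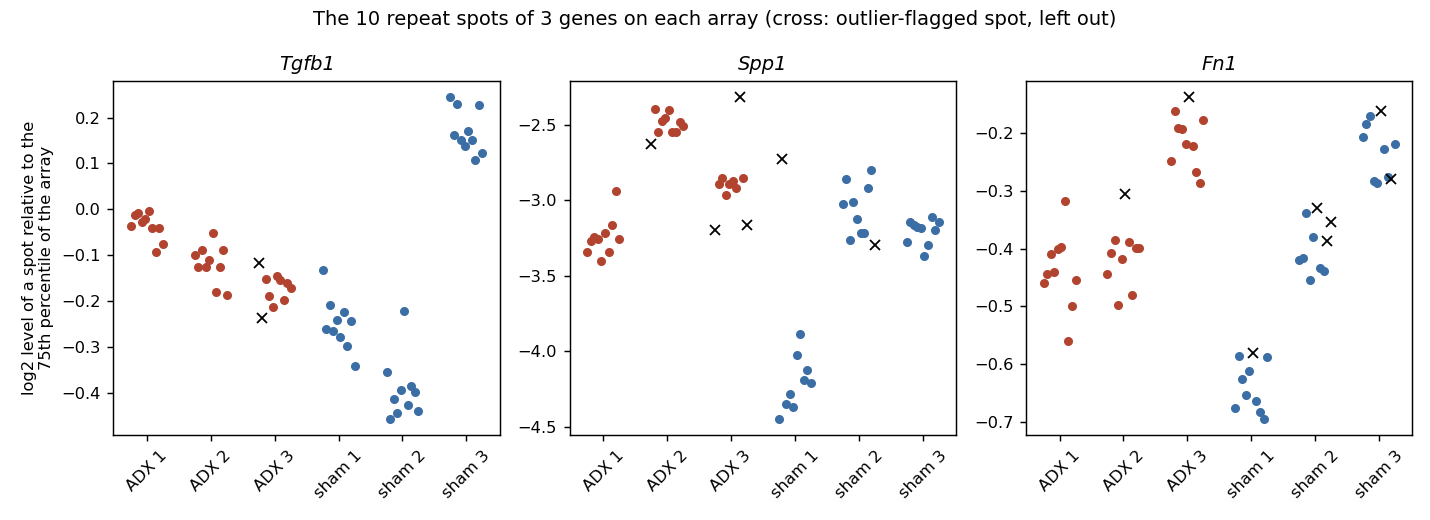
Log2 level of each repeat spot of Tgfb1, Spp1 and Fn1 on the 3 ADX arrays (red) and the 3 sham arrays (blue), with outlier-flagged spots as crosses. Unflagged spots of an array lie close together (pooled SD 0.05, 0.12 and 0.05), and sham replicate 3 of Tgfb1 and sham replicate 1 of Spp1 stand apart from the other arrays.

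Around the ligands, the genes that store and activate TGF-beta were 13 tested of 14 listed, with 6 higher and 7 lower in ADX hearts and a median of -0.09. In limma 0 passed the adjusted threshold, and 1 higher and 2 lower had an unadjusted p under 0.05. Nrros, which anchors latent TGF-beta1 on macrophages and microglia, was at 2.04, 2.13 and 2.10 in ADX hearts and 1.58, 1.84 and 1.78 in sham hearts (difference 0.36, SE 0.11, limma adjusted p = 0.300). Ltbp1, the binding protein that ties latent TGF-beta to the matrix, was at -0.69, -0.71 and -0.57 in ADX hearts and -0.33, -0.42 and -0.25 in sham hearts (difference -0.33, SE 0.10, adjusted p = 0.310). The groups did not overlap for either gene, and the other Ltbp1 probe differed by -0.14 with groups that overlapped.

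The receptor list had 7 of 7 genes tested, with 4 higher and 3 lower, a median of 0.07 and 0 past the adjusted threshold in limma (1 lower at an unadjusted p under 0.05). Tgfbr1 and Tgfbr2, the signalling receptors, differed by 0.11 and 0.07 (adjusted p = 0.713 and 0.811). Tgfbr3, betaglycan, which presents TGF-beta2 to the signalling receptors, was at -4.11, -3.92 and -3.81 in ADX hearts, against -3.08, -2.58 and -1.26 in sham hearts. Every ADX value lay below every sham value, and the difference was -1.64 (SE 0.43, unadjusted p = 0.00636, limma adjusted p = 0.254). Its single probe was well above background on all arrays, and the SD was 0.16 in ADX and 0.94 in sham hearts. The ADX levels were dim, near that of Spp1 on sham replicate 1 (-4.21), where 6 of 10 spots were well above background. Eng, endoglin, a co-receptor of endothelial cells, differed by -0.19 (SE 0.10, adjusted p = 0.475) without overlap.

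Of the 12 genes of Smads and their regulators, 6 were higher and 6 lower, with a median of -0.0043 and 0 past the adjusted threshold in limma (1 lower at an unadjusted p under 0.05). Smad6, an inhibitory Smad of the BMP branch, differed by -0.33 (SE 0.12, adjusted p = 0.363), and Ski, a co-repressor of Smad2 and Smad3, by -0.29 (SE 0.16, adjusted p = 0.509), with -0.08 and -0.15 from 2 other Ski probes. Genes commonly induced by TGF-beta were 14 tested of 15, with 5 higher, 9 lower, a median of -0.09 and 0 past the adjusted threshold, while 1 higher and 2 lower had an unadjusted p under 0.05. Col3a1, collagen III, differed by -0.34 (SE 0.12, limma adjusted p = 0.348) and Tagln, the smooth muscle protein transgelin, by -0.69 (SE 0.25, adjusted p = 0.363). Another Col3a1 probe, well above background on 3 ADX arrays and 1 sham array, gave 0.13, and the other Tagln probe gave -0.28.

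Among YAP-TEAD targets other than Ccn1, Ccn2 and Tgfb2, 16 of 19 genes were tested, with 6 higher and 10 lower, a median of -0.11 and 0 past the adjusted threshold in limma. At an unadjusted p under 0.05, 1 was higher and 4 were lower. Amotl2, a junctional partner of YAP, was at 0.75, 0.93 and 0.72 in ADX hearts, against 1.12, 1.13 and 1.42 in sham hearts (difference -0.42, SE 0.13, adjusted p = 0.293). Ankrd1, the stress-responsive cardiac ankyrin repeat protein, was at 6.73, 6.86 and 6.66 in ADX hearts and 7.11, 7.35 and 6.88 in sham hearts (difference -0.36, SE 0.14, adjusted p = 0.387). Like Ccn2, both had groups that did not overlap. 

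Of the other matricellular genes 15 of 21 were tested, with 5 higher, 10 lower, a median of -0.19 and 0 past the adjusted threshold in limma, 1 lower at an unadjusted p under 0.05. The lower values with the smallest p were those of Spock2, a proteoglycan of the Sparc family (-0.76, SE 0.29, adjusted p = 0.369, with -1.04 and -0.04 from its other probes), and Ccn5, a CCN protein that opposes Ccn2 in the heart (-0.53, SE 0.24, adjusted p = 0.429). Tnc (tenascin-C), Tnn, Tnr, Spock1 and Spock3 were not well above background on all arrays of either group. Receptors for these proteins were 13 of 13 tested, with 4 higher, 9 lower, a median of -0.04 and 0 past the adjusted threshold in limma, none with an unadjusted p under 0.05. Itgav, the integrin alpha-v chain that releases latent TGF-beta, differed by -0.23 (SE 0.11, adjusted p = 0.465), and Cd44, a receptor of osteopontin and hyaluronan, by 0.34 (SE 0.17, adjusted p = 0.481). Another Cd44 probe gave 0.48 without overlap (limma adjusted p = 0.248 over all probes).

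**Figure D5:**
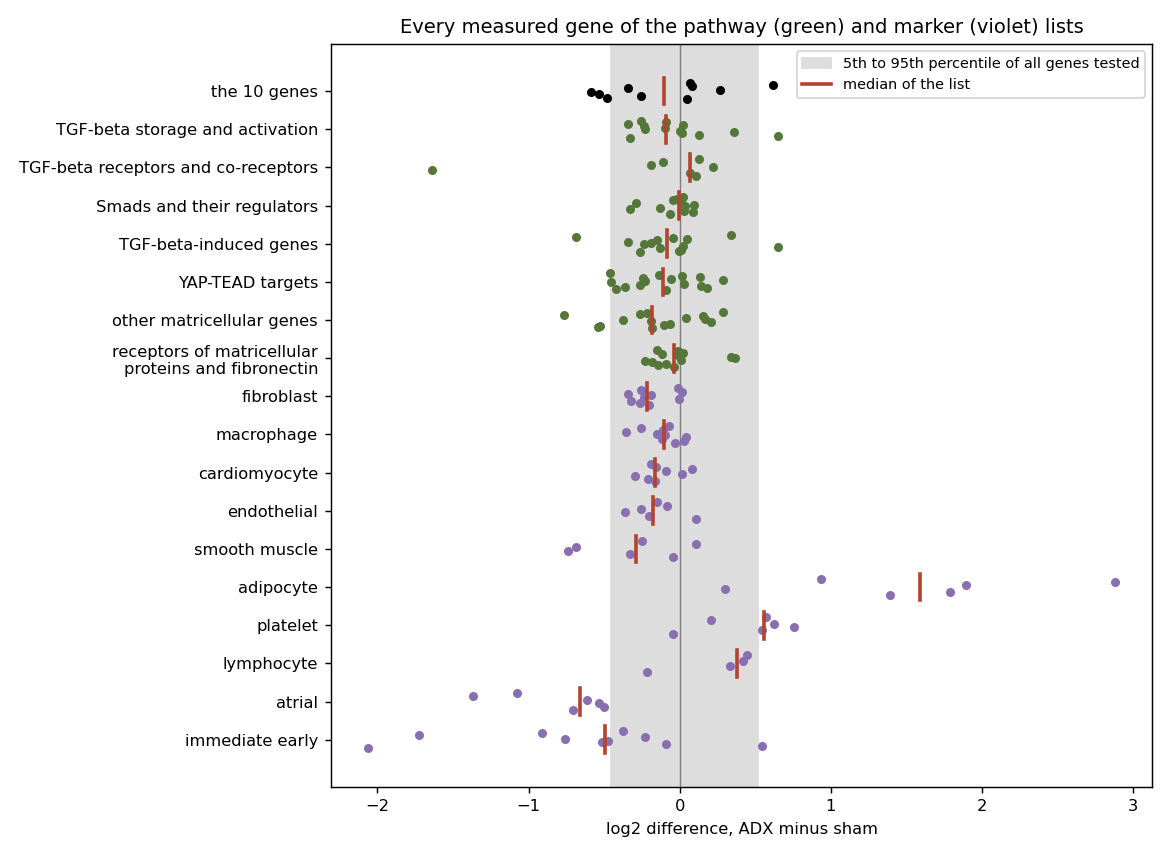
Log2 difference (ADX minus sham) of every tested gene of the pathway lists (green), the marker lists (violet) and the 10 genes (black), with the list median as a red bar and the 5th to 95th percentile of all genes tested (-0.45 to 0.52) in grey. The pathway medians lie between -0.19 and 0.07, while the adipocyte, platelet, atrial and immediate early medians lie outside the grey band.

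Markers of the cells that make or receive these proteins were read in the same fit, and no marker of the lists below passed the adjusted threshold in limma. Fibroblast markers, the main source of Postn, Fn1 and Sparc, were 10 of 10 tested, with 1 higher and 9 lower, 2 lower at an unadjusted p under 0.05, and a median of -0.22. Their summed signal was 540 to 614 in ADX hearts and 614 to 773 in sham hearts, as multiples of the 75th percentile, while the values of Postn were higher in ADX hearts. Sums of linear signals are weighted to the strongest gene and say little of the other markers. Here that gene was Gsn, at log2 levels of 8.48 to 8.99. In the sums below it was Lyz2 (6.36 to 6.77) for macrophage and Fabp4 (7.89 to 8.61) for adipocyte markers. Col3a1 and Dcn, the proteoglycan decorin, had the smallest p of the fibroblast list (-0.34 and -0.32, adjusted p = 0.348 and 0.402). Macrophage markers, a source of Spp1, had a median of -0.10 (2 higher, 8 lower of 10) and summed to 108 to 128 in ADX and 101 to 121 in sham hearts, led by Trem2 (-0.25, adjusted p = 0.489) and Cd163 (-0.35, adjusted p = 0.501). Platelet markers, a store of Tgfb1 and Thbs1, had a median of 0.56 (5 higher, 1 lower of 6) and summed to 9.27 to 16.8 in ADX and 10.7 to 14.7 in sham hearts, with Itga2b at 0.76 (adjusted p = 0.398) and Gp9 at 0.62 (adjusted p = 0.568). The list median per array, as a distance to the mean of the sham arrays, was 0.92, 1.29 and -0.40 on the ADX arrays. It was -0.11, 0.11 and -0.02 on the sham arrays. On that scale Thbs1 was at -0.60, 0.29 and -0.70 on the ADX arrays and 0.45, -0.65 and 0.20 on the sham arrays. The order of the ADX arrays was the same for Thbs1 and the platelet list, and that of the sham arrays was the reverse.

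The other marker lists differed between the groups to different degrees. At an unadjusted p under 0.05 in limma, 3 adipocyte, 1 platelet and 1 lymphocyte marker were higher, 1 cardiomyocyte and 1 smooth muscle marker were lower, and 0 macrophage or endothelial markers were either. All 6 tested adipocyte markers were higher, with a median of 1.59 and 0.34 within slide 1, a summed signal of 393 to 712 in ADX and 324 to 436 in sham hearts, and Ucp1 at 2.88 (adjusted p = 0.274) and Plin1 at 1.79 (adjusted p = 0.375). The values of all 6 atrial markers were lower, between -1.37 (Bmp10) and -0.50 (Myl4) with a median of -0.66, and each had an unadjusted p under 0.05. They had a summed signal of 1077 to 1137 in ADX and 1364 to 2115 in sham hearts, with Pam at -1.07 (adjusted p = 0.195) and Nppa, atrial natriuretic peptide, at -0.70 (adjusted p = 0.242). On sham replicate 2, and on no other array, 6 of the 10 Nppa spots were saturated. The other Nppa probe gave -0.92 (limma adjusted p = 0.169 over all probes). Smooth muscle markers had a median of -0.29 (1 higher, 5 lower of 6). They summed to 69.4 to 91.8 in ADX and 69.9 to 143 in sham hearts, with the highest value on sham replicate 2. That array had the highest Tgfb3, but also the highest median of the atrial (0.33), fibroblast (0.15) and TGF-beta-induced (0.18) lists, as distances to the sham mean. The match is thus not particular to smooth muscle. Tagln had the smallest p of the smooth muscle list, followed by Rgs5 (-0.25, adjusted p = 0.449), whose other probe gave 0.26. Cardiomyocyte markers had a median of -0.16 (2 higher, 6 lower of 8), with Tnni3 at -0.29 (adjusted p = 0.389) and Myl3 at -0.19 (adjusted p = 0.539) from a probe saturated on 1 array, sham replicate 3, while its other probe gave 0.31. Endothelial markers had a median of -0.18 (1 higher, 5 lower of 6), with Tek at -0.26 (adjusted p = 0.449, and 0.28 from its other probe) and Cdh5 at -0.20 (adjusted p = 0.548). Lymphocyte markers had a median of 0.38 over 4 tested genes, 3 of them higher, with Cd3g at 0.33 (adjusted p = 0.366) and Ptprc at 0.42 (adjusted p = 0.505). The part of these cell types in the differences of the 10 genes was not tested.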

How the data were processed

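Heart RNA of 3 ADX and 3 sham mice was amplified from total RNA, labelled with Cy3 and hybridised to 1-colour Agilent arrays, per the labels' protocols. Feature Extraction 9.5.3.1 made the spot values, per the file headers. The deposited processed signal is a linear intensity from which background had been subtracted, with surrogates in place of low signals, per the file headers. It is not normalized between arrays. The deposited value table equalled it at all 45018 spots, so this intensity table is linear and uncentred, with medians of 75.1, 92.2 and 80.9 on the ADX and 70.8, 68.1 and 84.4 on the sham arrays.

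Signals were taken as log2 minus the 75th percentile of the array. Control spots were dropped, as were outlier-flagged ones (80 to 133 an array), and repeats of a probe averaged. A probe was well above background on an array when over 50% of its spots were, and was tested when this held on all arrays of a group (23989 probes). The tested probe with the highest mean stood for a gene. Of 41174 probes 22944 were named through a RefSeq accession and 18230 kept the name of the file. The ADX minus sham difference was tested in limma 3.58.1 (lmFit, eBayes; R 4.3.3), two-sided, with p-values adjusted by Benjamini-Hochberg across the 16948 genes and called under 0.05. An exact permutation test of 3 against 3 arrays cannot go below a p of 0.1.

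On simulated arrays of 16882 genes the fit called 7.35%, 66.7% and 83.3% of genes changed by 0.5, 1 and 2 log2 units. These were 68, 66 and 66 changed genes, and 5 unchanged genes were called as well. The simulated noise was independent between genes and arrays, with no shift between slides. The shares therefore need not hold for the real arrays. Named genes were the 10 genes, the list members past the threshold or, with none, the 2 of smallest p, and the 5 genes most correlated with the member of smallest p. Genes named beside these were chosen after their values were seen. The members and lists were chosen with earlier results of these data known. Lrrc32 and Ccn6 matched no probe by name.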

Additional observations from a re-analysis of the deposited data

How the results depend on the processing

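No gene of the 10 was called under any of the 20 alternatives but 1, normexp correction on the local background. It called 3 of them in limma, Postn (0.51, adjusted p = 0.0385), Thbs1 (-0.92, adjusted p = 0.0318) and Spp1 (-0.67, adjusted p = 0.0265). It also called 14 pathway genes and 11 marker genes. Of all 16948 genes it called 1220 higher and 4730 lower, and nothing particular to the 10 genes is read from the 3 calls. This setting turned the direction of Spp1, Tgfb3 (0.077) and Fn1 (-0.081). The cause was not tested. Ccn2 was lower in all 20 alternatives (limma adjusted p 0.182 to 0.581) and had an unadjusted p under 0.05 in 19, all but normexp on the local background. There the difference was -0.18. Postn was higher in all 20 (adjusted p 0.0385 to 0.724), but had an unadjusted p under 0.05 in 9, and in 1 of the 6 fits that leave out an array. Tgfb2, Ccn1 and Thbs1 also kept their direction in all 20. These counts of 20 include settings that could not turn a direction. The deposited value table repeated the main fit, p-values included. Other filters on dim probes, averaged probes, kept outlier spots, the replicate block and the variance trend changed p-values only for Ccn2, Postn, Tgfb2, Ccn1 and Thbs1. Ccn2, for example, stayed at -0.59 in each. The direction of these genes was thus tested only by the remaining alternatives. Directions of differences near 0 turned: Fn1 with the slide as a fixed block (-0.0098) and, with an array left out, between -0.039 and 0.17, Sparc between -0.010 and 0.19, and Tgfb1 between -0.070 and 0.21. The median difference of the 10 genes stayed between -0.14 and -0.04.

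Over all genes, the 5 higher and 2 lower calls became 0 and 0 with normexp on the negative control spots, 2 higher after quantile normalization, and 3 higher and 4 lower after median centring. The count was 0 higher when the percentile came from detected probes, when probes of a gene were averaged and when outlier spots were kept. It was 0 higher and 1 lower when probes had to be above background on every array, without a filter, and with the slide as a fixed block. In the settings named so far with 0 higher, 1689 to 2194 genes had an unadjusted p under 0.05 in limma. The variance trend gave 7 lower. Leaving out an array gave 0 to 39 higher, with 39 without ADX replicate 1, and 1 to 6 lower, with 6 without sham replicate 2 (1385 to 2472 genes at an unadjusted p under 0.05). With the replicate number as a block there were 0 higher and 1 lower calls (1840 genes at an unadjusted p under 0.05), and none of the 10 genes passed, with Spp1 at an adjusted p of 0.340. Same-numbered arrays correlated at 0.16, 0.16 and -0.16 in their deviations from the group means, so the numbers were not taken as pairs. Signal over background kept 2 of 3 Thbs1 probes and 1 of 3 Fn1 probes out of the test, and 6 of 10 Spp1 spots were well above background on sham replicate 1.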
